A study of Mus musculus with 34 samples.

Results

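The Dlk1-Dio3 region of mouse chromosome 12 was followed through 6 of its genes among the 48709 genes counted in Mta123KO and Control embryonic stem (ES) cells. The 6 genes were the RNAs Meg3, Rian and Mirg, which are expressed from the maternal chromosome, and the coding genes Dlk1, Rtl1 and Dio3, which are expressed from the paternal chromosome. They were chosen as the region's known imprinted genes and selected on their CPM in these same Mta123KO and Control libraries, where several had already been seen to differ. Their levels in the Mta123KO and Control libraries are therefore given as a description without a test. All 6 were counted in the 16 Mta123KO and Control libraries, and the 3 coding genes, but none of the 3 RNAs, were counted in the 18 libraries of single Mta mutants.

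In an imprinted region, the allele inherited from 1 parent is used and the other is silent. At Dlk1-Dio3 the choice is set by differentially methylated DNA between Dlk1 and Meg3, which is methylated on the paternal chromosome. The maternal chromosome then makes long non-coding RNAs that host small nucleolar RNAs (snoRNAs) and microRNAs (miRNAs), while the paternal chromosome expresses the coding genes. In mouse ES cells and in induced pluripotent cells, silencing of Meg3 and its neighbours is a known form of clonal variation.

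The study removed the 3 MTA proteins, subunits that help to assemble the chromatin-remodelling complex NuRD. Mta123KO cells carry null alleles of Mta1, Mta2 and Mta3. Mta2 was the second of the 3 genes to be disrupted, after Mta1, and floxed Mta3 was then deleted with Cre. Control cells retained a floxed Mta1 allele, wild-type Mta2 and floxed Mta3. The paper gives the other Mta1 allele of its control in chimaeric embryos as null. Each genotype was represented by 2 lines, with 2 libraries per line in each of 2 cultures, labelled 2iL (naive medium with 2 inhibitors and LIF) and 48 h (48 h without inhibitors or LIF), giving 4 libraries per group. The paper describes its control line as made alongside the parent of the triple-knockout line, not as that parent itself. The mutations and the line can thus not be told apart in Mta123KO against Control. A further 3 series compared Mta1_del/del with Mta1_flox/flox, Mta2_KO with Mta2_WT, and Mta3_del/del with Mta3_flox/flox, with 3 libraries per group. Mta1_del/del and Mta3_del/del were made by Cre from the floxed parents, and Mta2_KO was derived from embryos. The single mutants were grown in 2i and LIF, and all cells are labelled as of 129/Ola background. The labels do not say that the libraries of a line were separate cultures, so p-values measure only the spread between these libraries. Allele-specific counts were not analysed here, and the parental origin of each gene is background rather than a measurement.

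Totals were 37855790 to 57602285 counts per Mta123KO or Control library and 13105820 to 40613585 per single-mutant library. Mta2 was at a mean of 6.72 and 8.28 CPM in Mta123KO labelled 2iL and 48 h, against 122.7 and 192 CPM in Control. Mta3 was at 19.0 and 14.99 CPM against 65.1 and 40.8 CPM, and Mta1 at 24.6 and 17.8 CPM against 42.0 and 28.5 CPM. The 5 general ES cell markers were above 1 CPM in every group. Before any value is read by culture, it must be said that the naive ES cell markers go against the labels. The summed level of 7 naive markers was 157 to 243 CPM in Control labelled 2iL and 3634 to 4006 CPM in Control labelled 48 h. In Mta123KO the same sums were 417 to 544 CPM and 1901 to 2814 CPM. The sum of 6 formative or primed markers was 859.8 to 1418 CPM in Control labelled 2iL and 233 to 338 CPM in Mta123KO labelled 2iL, against 77.1 to 88.7 CPM and 80.8 to 116 CPM in Control and Mta123KO labelled 48 h. Within the formative or primed list, Dnmt3b alone had means of 882 and 223 CPM in Control and Mta123KO labelled 2iL. Otx2 was higher in Mta123KO labelled 2iL, at a mean of 32.5 against 16.3 CPM in Control. The other markers of this list were lower there. These marker sums move with several values below, and their part in them was not tested. The 2 Mta123KO lines also stood apart from each other more than libraries of a line did. The deposited files' own names give the opposite culture to the labels. Groups are named here by their labels, and exchanging the cultures would exchange the 2 comparisons of Mta123KO with Control and turn the sign of each culture difference.

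Rtl1 lies antisense to maternal transcripts, and the miRNA hairpins made from those transcripts are shown first because their letters explain a limit of the counts. RefSeq places 11 mature arms from 6 hairpins on the plus strand inside Rtl1, which is itself on the minus strand. The reverse complement of each of the 11 arms was found without mismatch in the 6358-base Rtl1 transcript, within the coding sequence. One arm of each of 5 hairpins is given below, in RNA letters from 5′ to 3′, with the seed (bases 2 to 8) in capitals, and the matching Rtl1 stretches follow for 2 of them with the bases that face the seed in capitals. The 11 seeds are all distinct.
mmu-miR-136-5p: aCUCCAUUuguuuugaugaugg
mmu-miR-434-3p: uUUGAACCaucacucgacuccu
mmu-miR-127-3p: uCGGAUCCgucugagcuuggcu
mmu-miR-433-3p: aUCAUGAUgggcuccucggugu
mmu-miR-431-5p: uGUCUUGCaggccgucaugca
Rtl1 site of miR-127-3p: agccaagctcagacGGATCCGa
Rtl1 site of miR-136-5p: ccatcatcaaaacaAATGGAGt

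The site of miR-127-3p spans bases 2642 to 2663 of the Rtl1 transcript, and that of miR-136-5p spans bases 199 to 220. miR-127-3p itself lies at chr12:109592888-109592909 on the plus strand (GRCm38). In the Mta123KO and Control libraries, reads were not counted by strand. For 54 genes nested on the opposite strand of an expressed host, the median count per kb was 1.44 times that of the host, and none of the 54 was at 0. Rtl1 counts in these libraries can thus hold reads of the maternal antisense transcript, and the 2 sources cannot be told apart. In the single-mutant libraries, all 9 such opposite-strand genes were at 0 in every library. No nested gene on the same strand was available there for comparison, so these values do not show how reads were counted. Whether Rtl1 counts in the single-mutant libraries hold antisense reads was not tested.

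The windows upstream of Dlk1 and Meg3 are shown because Meg3, Rian and Mirg had near-parallel levels while Dlk1 did not follow them. Each window is the 250 bases before the RefSeq start (GRCm38, plus strand), with CG pairs in capitals. The Dlk1 window at chr12:109452573-109452822 holds 8 CG pairs, and 43.0% of 32851 windows of the same length hold as many or more. The Meg3 window at chr12:109540746-109540995 holds 10, and 37.8% of windows hold as many or more.
Dlk1: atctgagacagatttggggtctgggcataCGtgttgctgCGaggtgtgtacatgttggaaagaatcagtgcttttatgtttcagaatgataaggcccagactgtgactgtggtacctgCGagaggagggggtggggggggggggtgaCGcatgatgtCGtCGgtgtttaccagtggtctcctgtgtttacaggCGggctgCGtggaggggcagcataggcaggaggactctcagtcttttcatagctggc
Meg3: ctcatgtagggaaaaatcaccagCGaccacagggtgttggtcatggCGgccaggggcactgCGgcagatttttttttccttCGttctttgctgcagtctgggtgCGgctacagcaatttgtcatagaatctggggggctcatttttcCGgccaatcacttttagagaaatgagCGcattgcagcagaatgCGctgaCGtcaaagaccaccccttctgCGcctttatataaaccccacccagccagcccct

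The letters TGCCGC were searched on either strand as the core known to be read by the imprint-protecting factor Zfp57 when methylated. They occur in the Meg3 window shown and not in the Dlk1 window, and are found in 8.68% of all windows. A second Meg3 window, at chr12:109545148-109545397, holds 0 CG pairs and lacks these letters. The windows of Rian, Mirg and Dio3 lack them too, so their presence does not go with the near-parallel levels. Methylation was not measured in these files.

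Meg3 (ENSMUSG00000021268, chr12:109541001-109571726, plus strand) is the long non-coding RNA nearest to the control element. In Control labelled 2iL it was at 260.3 and 235 CPM in the libraries of line 1 and 232 and 206 CPM in those of line 2. In Mta123KO labelled 2iL it was at 49.9, 51.3, 51.6 and 53.4 CPM. The lowest Control library was thus well above the highest Mta123KO library. The means of 233 ± 22.2 and 51.5 ± 1.41 CPM (SD, n = 4 each) gave a 4.53-fold lower level in Mta123KO. In Control labelled 48 h, Meg3 was at 81.0, 90.3, 60.1 and 68.7 CPM, and in Mta123KO labelled 48 h at 124, 110.3, 86.5 and 95.8 CPM. These groups overlapped, because 1 Mta123KO library at 86.5 CPM lay below the Control library at 90.3 CPM, and the means had a ratio of 1.39. Mta123KO was the lower genotype in the culture labelled 2iL and had the higher mean in the culture labelled 48 h. In such bulk libraries, fewer expressing cells and less RNA per cell cannot be told apart.

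Rian (ENSMUSG00000097451, chr12:109603940-109661716) is the host of a large snoRNA cluster. It was the most abundant of the 6 per kb of exon, at 37.5 CPM per kb in Control labelled 2iL. Mirg followed at 24.7, Rtl1 at 13.6, Meg3 at 12.9, Dlk1 at 0.293 and Dio3 at 0.153 CPM per kb, where Rtl1 and Meg3 overlapped between libraries. In CPM, Rian in that group was at 751, 678, 688 and 615 CPM, and in Mta123KO labelled 2iL at 161, 149, 152 and 173 CPM. The groups did not overlap, and the mean was 4.30-fold lower in Mta123KO. Labelled 48 h, Rian was at 241, 278, 189 and 234 CPM in Control and at 355, 326, 239 and 281 CPM in Mta123KO. Those groups overlapped, with a ratio of means of 1.28.

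Mirg (ENSMUSG00000097391, chr12:109729764-109749460) hosts the miRNA cluster at the far end of the maternal transcripts. It was at 192, 169, 191 and 169 CPM in Control labelled 2iL and at 48.2, 42.4, 43.7 and 54.5 CPM in Mta123KO. Mirg was 3.82-fold lower in Mta123KO, with no overlap. For the 48 h label, Mirg was at 53.2, 76.4, 39.95 and 64.6 CPM in Control and at 82.9, 93.1, 67.2 and 81.8 CPM in Mta123KO, with overlapping groups and a ratio of 1.39.

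The 3 RNAs kept a narrow proportion to each other. Across the 16 libraries the ratio of Rian to Meg3 ran from 2.76 to 3.41, a 1.23-fold range, while Meg3 itself ran over a 5.21-fold range. The ratio of Mirg to Meg3 ran from 0.657 to 1.02. The sum of the 3 RNAs was 1096 ± 87.5 CPM in Control labelled 2iL and 257.6 ± 17.4 CPM in Mta123KO labelled 2iL (SD, n = 4 each). It was 369 ± 63.7 CPM and 485.6 ± 75.3 CPM in the groups labelled 48 h.

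**Figure D1:**
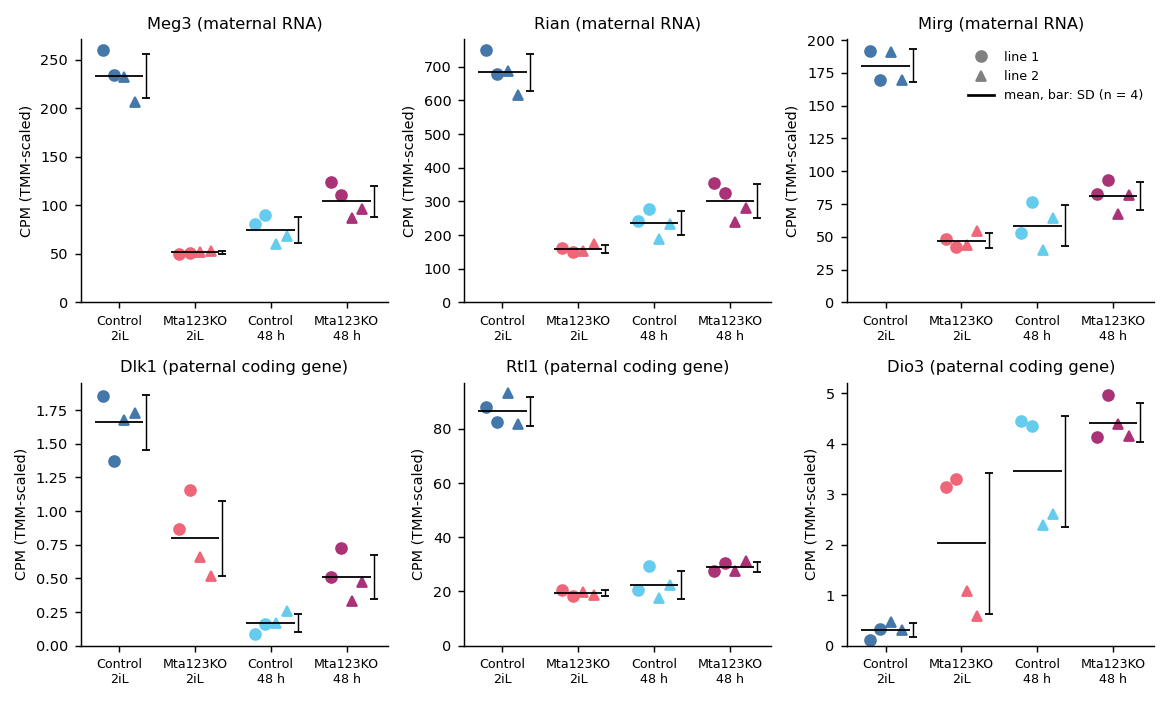
Level of each of the 6 genes in CPM (linear axis from 0, a separate scale for each gene) in the 16 Mta123KO and Control libraries, with the group mean as a line and the SD as a bar. Meg3, Rian, Mirg, Rtl1 and Dlk1 are highest in the 4 Control libraries labelled 2iL, whereas Dio3 is lowest there, at 0.120 to 0.476 CPM.

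Rtl1 (ENSMUSG00000085925, chr12:109589193-109600330, minus strand), a retrotransposon-derived gene needed in the placenta, followed the maternal RNAs more closely than the other coding genes did. It was at 88.2, 82.4, 93.3 and 81.8 CPM in Control labelled 2iL and at 20.7, 18.4, 19.9 and 18.9 CPM in Mta123KO, 4.44-fold lower without overlap. Under the 48 h label it was at 20.5, 29.5, 17.5 and 22.5 CPM in Control and at 27.5, 30.4, 27.4 and 31.1 CPM in Mta123KO. Those groups overlapped, with a ratio of 1.29. The ratio of Rtl1 to Meg3 ran from 0.222 to 0.415 across the 16 libraries, a 1.87-fold range. That ratio was 0.372 ± 0.0321 in Control and 0.378 ± 0.0281 in Mta123KO labelled 2iL (SD, n = 4 each). How much of it comes from antisense maternal reads was not tested.

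Dlk1 (ENSMUSG00000040856, chr12:109452823-109463336, plus strand), a membrane protein of the Notch ligand family, was scarce in every group. In the culture labelled 2iL it was at 1.86, 1.37, 1.68 and 1.73 CPM in Control, from 66 to 93 counts per library. In Mta123KO it was at 0.871, 1.16, 0.656 and 0.517 CPM, from 24 to 51 counts, which was 2.08-fold lower without overlap. Labelled 48 h, Dlk1 was at 0.0882, 0.158, 0.168 and 0.257 CPM in Control and at 0.509, 0.726, 0.335 and 0.475 CPM in Mta123KO, a ratio of 3.05 without overlap. The Control values labelled 48 h rest on 5 to 11 counts per library.

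Dio3 (ENSMUSG00000075707, chr12:110279068-110281097, plus strand), the deiodinase that inactivates thyroid hormone, ran against the other 5 genes in the culture labelled 2iL. It was at 0.120, 0.333, 0.476 and 0.310 CPM in Control, from 6 to 23 counts per library, and at 3.14, 3.31, 1.09 and 0.581 CPM in Mta123KO. The ratio of means was 6.56 without overlap. The first 2 of these Mta123KO values are of line 1 and the others of line 2, and both libraries of line 1 were above both of line 2. For the 48 h label, Dio3 was at 4.44, 4.36, 2.40 and 2.61 CPM in Control and at 4.14, 4.97, 4.40 and 4.16 CPM in Mta123KO, with overlapping groups and a ratio of 1.28.

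In the culture labelled 2iL, then, 5 of the 6 genes were lower and 1 was higher in Mta123KO without overlap of the groups. Among all 21651 genes tested in that comparison, 25.0% were lower and 25.0% higher without overlap. With the 48 h label, 1 of the 6, Dlk1, did not overlap, where 24.6% of 21079 genes were higher and 23.8% lower without overlap. The genes were chosen with these comparisons known, so nothing is read from these shares. Summed over the coding genes, Mta123KO against Control labelled 2iL gave a log2 ratio of −1.99, which is set by Rtl1. Without Rtl1, Dlk1 and Dio3 together gave 0.52. Taken between lines of the same number, which do not pair the genotypes, the value was 1.20 for line 1 and −0.56 for line 2. The 3 maternal RNAs gave −2.09.

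**Figure D2:**
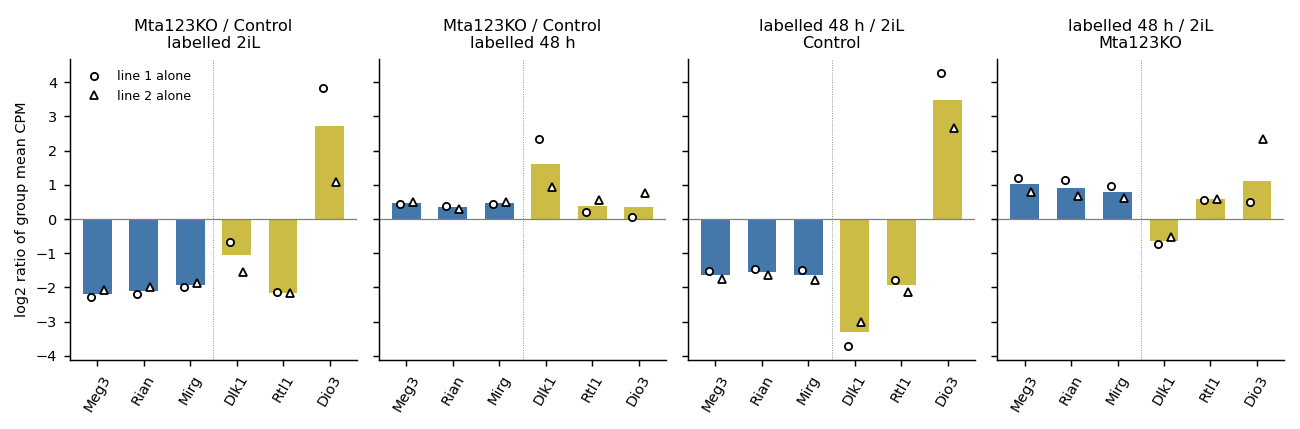
Log2 ratio of group mean CPM for each gene in 4 comparisons, maternal RNAs in blue and paternal coding genes in yellow, with circles and triangles for line 1 and line 2 alone, matched between genotypes by number only. Meg3, Rian, Mirg and Rtl1 lie close to −2 in Mta123KO against Control labelled 2iL, and Dio3 lies above 0 with its 2 lines far apart.

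Between cultures, Control and Mta123KO differed in opposite directions for 4 of the 6 genes. In Control, Meg3 was 3.11-fold lower in the culture labelled 48 h than in that labelled 2iL, a log2 ratio of −1.64, and Rian, Mirg and Rtl1 had log2 ratios of −1.54, −1.62 and −1.94. In Mta123KO the same 4 genes had log2 ratios of 1.01, 0.92, 0.78 and 0.58, again with no overlap of the groups. Dlk1 was 9.91-fold lower in Control labelled 48 h, and its groups overlapped in Mta123KO, with a ratio of 0.639. Dio3 had the same direction in both genotypes, with a ratio of 11.1 in Control and 2.17 in Mta123KO. In all, 6 of 6 genes did not overlap between cultures in Control, 5 lower and 1 higher, beside 27.4% and 26.7% of 21240 genes tested. In Mta123KO, 5 of 6 were higher without overlap, beside 15.5% of 21505 genes.

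**Figure D3:**
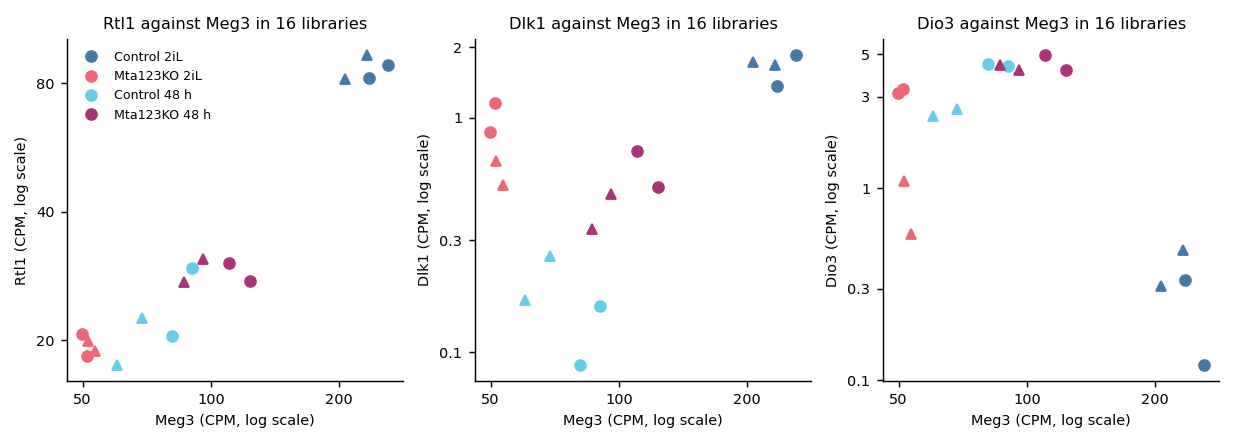
Level of Rtl1, Dlk1 and Dio3 (CPM) against Meg3 (CPM) in the same 16 libraries, coloured by group. Rtl1 stays within a 1.87-fold range of ratios to Meg3, whereas the ratio to Meg3 covers a 20.7-fold range for Dlk1 and a 140.2-fold range for Dio3.

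The other annotated genes between Dlk1 and Dio3 were counted next. The files hold 98 of them, of which 67 are miRNAs, 23 are snoRNAs and 8 are other RNAs. Many lie inside transcripts of the 6 genes and 69 share no exon with them, so their counts are not independent of the values above. In Mta123KO against Control labelled 2iL, 86 passed the filter on low counts, and 80 fell and none rose (edgeR quasi-likelihood test; a call here and elsewhere requires more than a 2-fold difference besides an adjusted p under 0.05). Across all genes in that comparison, 7.40% fell and 13.2% rose. Of the 86, none rose at an unadjusted p under 0.05, and DESeq2 called 80 lower and none higher. Their median log2 fold change was −2.09, against 0.01 for all genes tested. Without the genes that share an exon with one of the 6, 55 of 58 fell.

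By class, all 23 snoRNAs, 50 of 56 miRNAs and 7 of 7 other RNAs fell. The most abundant was Gm24895, a snoRNA gene within a Rian exon, at a mean of 34.3 CPM over the 16 libraries, with a log2 fold change of −1.97 ± 0.08 (SE, adjusted p = 8.5e-07). Gm37899 and Gm26945, which share no exon with the 6 genes, fell by 2.30 ± 0.12 and 2.16 ± 0.15 on the log2 scale. Gm26906, which lies on the strand opposite to Meg3, and Mir1906-1, in a Meg3 exon, fell by 2.23 ± 0.12 and 2.12 ± 0.12. Among the 10 largest changes were the miRNA genes Mir3072 (−3.23), Mir381 (−3.18), Mir341 (−2.70), Gm27379 (−2.66), Mir667 (−2.57), Mir665 (−2.54) and Mir487b (−2.48). The others were the snoRNA genes DQ267101 (−2.73), Gm22981 (−2.60) and Gm23736 (−2.42).

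The hairpin genes antisense to Rtl1 shown above followed. Mir433 fell by 2.37 ± 0.21, Mir431 by 2.15 ± 0.47, Mir434 by 2.07 ± 0.40 and Mir127 by 2.03 ± 0.31 on the log2 scale. Mir136 did not pass the filter. These counts are of RNA over the hairpin genes, not of mature miRNAs, and they were picked for their place within Rtl1. Because reads were not counted by strand, the hairpin counts can hold Rtl1 reads and are not independent of the Rtl1 values.

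In Mta123KO against Control labelled 48 h, 73 of the other genes passed the filter and 7 rose, where 14.1% of all genes rose and 5.89% fell. None fell (edgeR), none had an unadjusted p under 0.05 in that direction, and DESeq2 called 7 higher and none lower. The 7 were all miRNA genes, namely Mir412 (1.64), Mir369 (1.54), Mir323 (1.46), Mir376c (1.46), Mir300 (1.33), Mir410 (1.22) and Mir485 (1.10). The count was 2 without replicate 1_1, 4 without 1_2 and 1 with the libraries of a line summed. The median log2 fold change was 0.43, and 67 of the 73 values were positive. Of the abundant ones, Gm24895, Gm37899, Gm26906 and Mir1906-1 had log2 fold changes of 0.46, 0.56, 0.39 and 0.43, and Gm26945 of 0.03, none above the fold threshold.

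**Figure D4:**
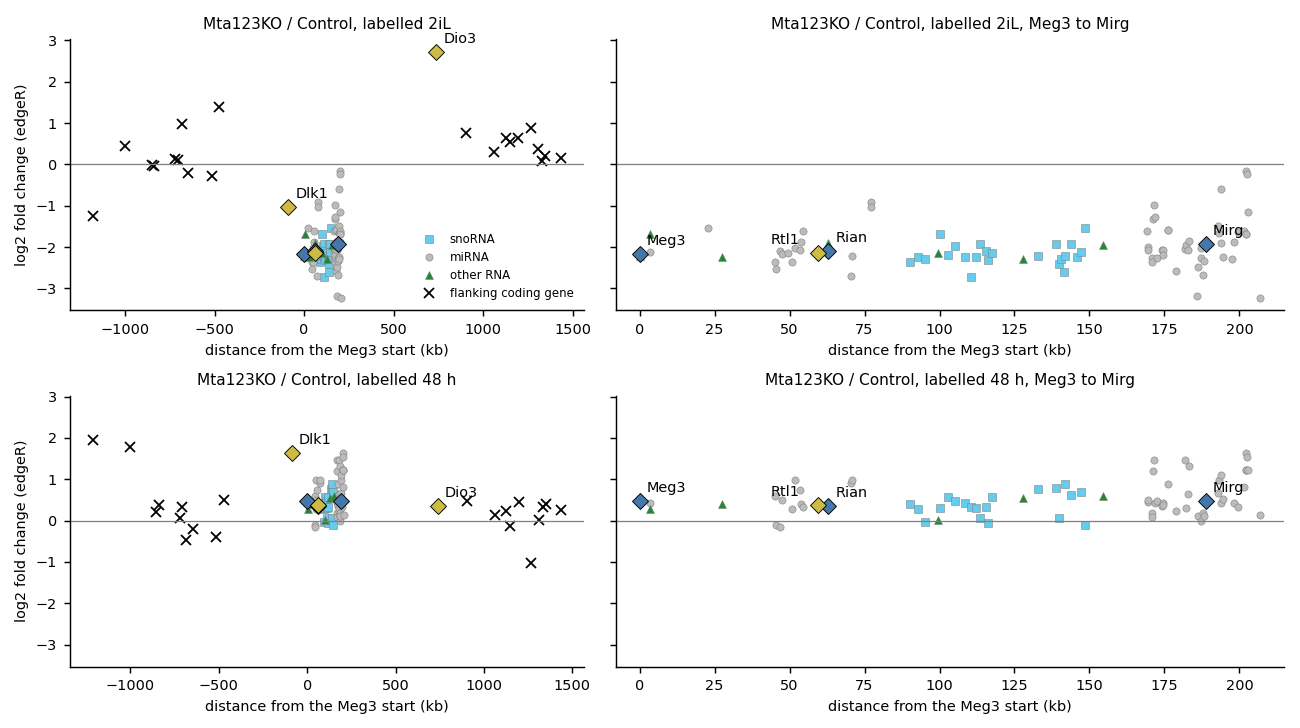
Log2 fold change of Mta123KO against Control (edgeR) by distance from the Meg3 start in kb, labelled 2iL above and 48 h below, with the stretch from Meg3 to Mirg enlarged on the right. Diamonds are the 6 genes (maternal in blue, paternal in yellow), squares, circles and triangles are other RNAs of the region, and crosses are the 20 flanking coding genes, which lie around 0 while the RNAs of the region lie around −2 in the culture labelled 2iL.

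Between cultures, 83 of 86 of these genes fell in Control labelled 48 h against 2iL, beside 13.1% of all genes, with a median log2 fold change of −1.66. In Mta123KO, 17 of 73 rose, beside 4.79% of all genes, and all 73 values were positive, with a median of 0.86. That count was 6 without replicate 1_1, 1_2 or 2_2 and 0 with the libraries of a line summed. The summed fit called 0 of all 24445 genes, so its 0 says nothing of these genes in particular. Line was not entered in these culture fits, although the same lines were in both cultures. With the replicate number as a block, 1364 of 21505 genes rose in Mta123KO, against 1030 without it. The difference between the culture effects of the genotypes was tested as the genotype by culture interaction. It was higher in 80 of 87 genes, beside 7.62% of all genes, with a median of 2.54. Of those that share no exon with the 6 genes, 56 of 59 were higher. With the libraries of a line summed, 46 of all were higher, beside 379 of 25816 genes tested. Gm24895 had an interaction of 2.44, Gm37899 of 2.86, Gm26906 of 2.63, Mir1906-1 of 2.55 and Gm26945 of 2.19 on the log2 scale.

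Flanking coding genes were examined in the same fits. Of these 20 genes, 10 tested per side, 1 was called in Mta123KO labelled 2iL, where 13.2% of all genes rose and 7.40% fell. The median log2 fold change over the 20 was 0.25. The one called was Begain, a brain synaptic protein gene and the nearest tested before Dlk1, which rose by a log2 fold change of 1.40. Ppp2r5c, a phosphatase subunit gene and the nearest tested after Dio3, had a value of 0.76. Among cells labelled 48 h, Eml1 (1.77) and Hhipl1 (1.95) rose and Mok (−1.02) fell, where 14.1% of all genes rose and 5.89% fell. The other genes of chromosome 12 had medians of 0.02 and 0.07 in these comparisons. Mta1 lies on the same chromosome, 2.82 Mb after the end of Dio3. Further flanking genes were called in the other comparisons. Between cultures in Control, Mok (2.89) and Slc25a47 (1.24) rose and Cyp46a1 (−2.87) and Eml1 (−1.73) fell. The interaction was higher for Cyp46a1 (2.56) and Eml1 (1.34) and lower for Mok (−1.89) and Slc25a47 (−1.44). Eml1 (−1.17) fell in Mta2_KO and Begain (−1.46) fell in Mta3_del/del.

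Genes whose levels over the 16 libraries were most like that of Meg3 were sought among 17068 genes with a mean of at least 1 CPM, by the Pearson correlation of log2 CPM. The points share libraries and fall into 4 groups, so the values are descriptive. The 5 most like Meg3 were Gm24895 (r = 0.997), Rian (0.996), Gm26906 (0.995), Mir1906-1 (0.992) and Gm27000 (0.990). Gm26906 and Mir1906-1 overlap Meg3 exons and Gm24895 overlaps a Rian exon. Their counts can hold reads of Meg3 or Rian, so their likeness to Meg3 is not independent of it. Gm27000 is annotated on chromosome X, but 795 of its 819 words of 24 bases also occur in Meg3 transcripts, so its counts are uncertain. Mirg had r = 0.975, Rtl1 0.960 and Dio3 −0.62. The nearest gene outside the region without such shared words was Mboat2, an acyltransferase gene, with r = 0.951. The genes most like Dlk1 were Nptxr (0.979), Fndc4 (0.975), Fzd2 (0.963), Eef1akmt1 (0.961) and Ubtd2 (0.961), none of them in the region.

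The single-mutant libraries are separate from those that selected the genes, although their results were also known, and the coding genes were tested there across all genes. In Mta2_KO, Rtl1 was at 4.10, 4.64 and 3.84 CPM, against 22.5, 21.6 and 21.7 CPM in Mta2_WT. It was lower in 3 of 3 libraries, and the means of 4.19 ± 0.409 and 21.9 ± 0.517 CPM (SD, n = 3 each) gave a 5.23-fold lower level. The log2 fold change was −2.38 ± 0.09 (SE, edgeR adjusted p = 6.1e-10), and 6.08% of 15602 genes fell in this series. Whether antisense reads are among these Rtl1 counts was not tested. Dio3 was at 2.71, 2.90 and 2.73 CPM in Mta2_KO and at 3.96, 4.08 and 4.14 CPM in Mta2_WT, also without overlap, as were 28.8% of genes on the lower side. Its log2 fold change was −0.55 ± 0.13 (edgeR adjusted p = 0.0040), short of the fold threshold, and 48.5% of genes in this series had an adjusted p under 0.05 at any fold. Dlk1 was at 0.249, 0.221 and 0.412 CPM and at 0.410, 0.148 and 0.514 CPM, with a log2 fold change of −0.27 ± 0.52 (edgeR adjusted p = 0.71). The 7 naive markers summed to 3260 to 3371 CPM in Mta2_KO and 4446 to 4755 CPM in Mta2_WT. Trophoblast markers summed to 11.7 to 15.2 CPM in Mta2_KO and 42.2 to 43.7 CPM in Mta2_WT, and the part of either list in these values was not tested. Mta2_KO was a primary line derived from embryos and not made from Mta2_WT cells, so that the mutation and the line cannot be told apart.

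In Mta3_del/del, Dlk1 was at 0.222, 0.807 and 0.260 CPM, against 1.16, 1.98 and 0.958 CPM in Mta3_flox/flox. The groups did not overlap, as for 19.7% of genes on the lower side, and the log2 fold change was −1.67 ± 0.58 (SE, edgeR adjusted p = 0.075). DESeq2 gave an adjusted p of 0.064, and leaving out replicate 2 gave −2.11 with an edgeR adjusted p of 0.030. Rtl1 was at 2.59, 3.15 and 0.521 CPM, against 8.43, 4.52 and 3.99 CPM, with a log2 fold change of −1.41 ± 0.57 (edgeR adjusted p = 0.12). DESeq2 gave an adjusted p of 0.027 for Rtl1. Dio3 was at 5.43, 5.73 and 8.85 CPM, against 6.68, 6.05 and 5.99 CPM, with a log2 fold change of 0.10 ± 0.24. Thus none of the 3 genes was called by edgeR, while 2 of 3 had an unadjusted p under 0.05 and DESeq2 called 1, and 5.27% of 15522 genes fell. Markers of fibroblasts or feeder cells summed to 12.9 to 60.6 CPM in Mta3_flox/flox and 5.69 to 6.94 CPM in Mta3_del/del, and 4 of these 7 markers were above 1 CPM in Mta3_flox/flox. Their part in these values was not tested.

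In the Mta1 series the values spread widely within each group. Rtl1 was at 90.5, 19.3 and 27.7 CPM in Mta1_del/del and at 69.1, 37.6 and 23.1 CPM in Mta1_flox/flox for replicates 1, 2 and 3. It was lower in 1 of 3 pairs, with a log2 fold change of 0.08 ± 0.64 (edgeR adjusted p = 1.0). Dio3 was at 6.01, 5.66 and 1.77 CPM and at 5.0, 23.1 and 2.38 CPM, with a log2 fold change of −1.17 ± 0.87 (edgeR adjusted p = 1.0). The one Mta1_flox/flox library at 23.1 CPM stood far above its group. Dlk1 did not pass the filter, at 0.166, 0.354 and 1.28 CPM against 0.0952, 0.230 and 2.08 CPM, so that replicate 3 was the highest in both groups. Neither tested gene was called by edgeR or DESeq2 or had an unadjusted p under 0.05. Over all 14561 genes of this series edgeR called 0% (0 genes), with 47 at an unadjusted p under 0.05.

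**Figure D5:**
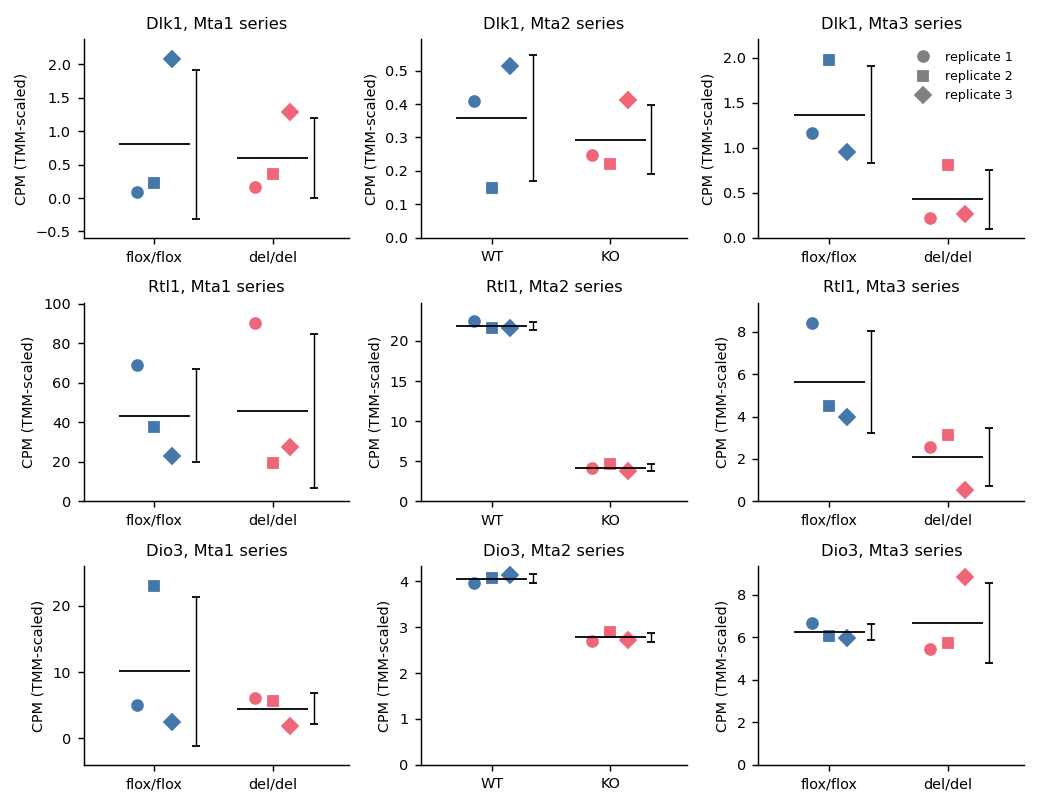
Level of Dlk1, Rtl1 and Dio3 in CPM in each single-mutant library, with symbols for replicate numbers, a line for the group mean and a bar for the SD, on a separate linear scale per panel. Rtl1 in Mta2_KO, at 3.84 to 4.64 CPM, is apart from Mta2_WT at 21.6 to 22.5 CPM, and the Mta1 series spreads widely within each group.

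In the control lines of the 3 series, Rtl1 was at 23.1 to 69.1 CPM in Mta1_flox/flox, 21.6 to 22.5 CPM in Mta2_WT and 3.99 to 8.43 CPM in Mta3_flox/flox. These lines were grown in the same medium and share the 129/Ola background. No test was made between the series.

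Genes with roles tied to those of the 6 were counted in fixed lists, chosen with earlier results known. Of 16 genes for imprint maintenance and DNA methylation, 2 rose and 2 fell in Mta123KO labelled 2iL. Across all genes in that comparison, 13.2% rose and 7.40% fell. Dnmt3l (1.07), a cofactor of the de novo DNA methyltransferases, and Dppa3 (1.6), which protects imprints in the zygote, rose. Dnmt3b (−1.97) and Tet1 (−1.40), which respectively add and oxidise methyl groups on DNA, fell. With the 48 h label, 4 rose and 1 fell, among them Dnmt3l (4.48), Dnmt3a (2.04), Tet3 (1.38) and Uhrf1 (−1.28). There, 14.1% of all genes rose and 5.89% fell. In Mta2_KO, where 5.34% of all genes rose and 6.08% fell, Dppa3 rose (2.35) and Tet2 fell (−1.20). The list's median was −0.15 in Mta123KO labelled 2iL and 0.01 labelled 48 h, against 0.01 for all genes in each. The 6 genes of Polycomb repressive complex 2, which can bind Meg3 RNA, had a median of 0.17 in Mta123KO labelled 2iL, and Mtf2 (−1.21) was the one called in the culture labelled 48 h.

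Dlk1 belongs to the Notch ligand family. Of 15 listed Notch ligands, receptors and target genes, 14 passed the filter in Mta123KO labelled 2iL, where 13.2% of all genes rose and 7.40% fell. Hey2 (1.71), a Notch target, rose, and the ligands Dll1 (−1.30) and Dll3 (−1.22) and the receptor Notch4 (−1.18) fell. In the culture labelled 48 h, 4 of 12 rose, where 14.1% of all genes rose and 5.89% fell. They were Dll1 (3.12), the Dlk1 relative Dlk2 (2.61), Jag2 (1.93) and Notch3 (1.55), and Notch4 (−2.38) fell. In Mta3_del/del, where Dlk1 had its value of −1.67, Dll1 (−3.44), Notch3 (−1.03) and Jag2 (−1.01) fell. In that series 5.27% of all genes fell. In Mta2_KO, where 5.34% of all genes rose, Jag2 (1.75) and Dll1 (1.22) rose.

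Dio3 acts on thyroid hormone, and 5 of 8 listed genes of its handling passed the filter in Mta123KO labelled 2iL. Among them, the receptor gene Thrb (2.73) and its partner Rxra (1.10) rose. Under the 48 h label, Slc16a10 (1.73), which encodes a transporter of thyroid hormone and aromatic amino acids, was among those that rose.

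Rtl1 belongs to the Gag-like genes of retrotransposon origin, of which 9 of 12 passed the filter. Of these, 5 were called in Mta123KO labelled 2iL and all 5 rose, namely Rtl8c (3.93), Peg10 (2.83), Pnma1 (1.49), Rtl8b (1.49) and Rtl8a (1.40). Of all genes, 13.2% rose in that comparison. In the culture labelled 48 h, 6 of 9 rose, among them Peg10 (5.59), Rtl8c (2.89), Rtl8a (1.57) and Rtl5 (1.54). There, 14.1% of all genes rose. The list's medians were 1.40 and 1.45. Peg10, itself expressed from the paternal allele on another chromosome, fell in Mta2_KO (−3.20) and rose in Mta3_del/del (2.35), where 0.805% of all genes rose. Trophoblast markers, a cell type that expresses several of these genes, summed to 46.5 to 232 CPM in Mta123KO labelled 2iL against 8.40 to 10.3 CPM in Control, with 6 and 2 of the 6 markers above 1 CPM. Labelled 48 h, they summed to 79.1 to 369 CPM in Mta123KO against 12.8 to 18.3 CPM in Control, with 5 and 3 of the 6 above 1 CPM. Krt8 alone had means of 97.8 and 203 CPM in Mta123KO labelled 2iL and 48 h, against 5.18 and 5.80 CPM in Control. Labelled 48 h, Eomes had a lower mean in Mta123KO (5.62 CPM) than in Control (8.03 CPM), while the other markers had higher means. The part of these markers in the values above was not tested.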

How the data were processed

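The deposited files hold raw counts of reads per Ensembl gene, 1 file per library, with 48709 genes and 92 ERCC spike-in RNAs in the 16 Mta123KO and Control libraries and 22018 genes in the 18 single-mutant libraries. The authors trimmed reads with Trim Galore, aligned them to GRCm38/mm10 with TopHat2 and counted them with featureCounts. Libraries were made with either of 2 stranded kits, and which library used which is not stated. Genes were named from GENCODE vM21, which matched 48349 and 21852 IDs, and sequences are from RefSeq GRCm38 tables. CPM were scaled by TMM. The quasi-likelihood test of edgeR 4.0.16 (R 4.3.3) was run on the groups compared, over all genes passing filterByExpr, with Benjamini-Hochberg adjustment. Calls required an adjusted p under 0.05 together with a log2 change beyond 1 in size. DESeq2 1.42.0, other scalings, no filter, a replicate block, summed lines and leaving out each replicate number were alternatives. The scripts were tested on simulated counts.

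The members and gene lists were chosen with earlier results of these data known. Named genes were the 6 members, the 5 most abundant other genes of the region and up to 10 with the largest called changes, the nearest flanking coding gene on each side and any called, the 5 genes most like Meg3 and Dlk1, and up to 4 called genes per list, except for 1 listed gene that is not reported here. Where the Notch and Gag-like lists had 5 called genes, the fifth was named after its value was seen. The miRNAs antisense to Rtl1 were named for their position, after their values were seen. Same-numbered samples deviated together in the Mta1 series (correlation 0.438 to 0.690) and, within lines, between cultures (0.246 to 0.307 in Control and 0.534 to 0.564 in Mta123KO). Differently numbered libraries of a line also did so between cultures, at 0.151 to 0.205 in Control and 0.540 to 0.564 in Mta123KO. In Mta123KO the numbers thus marked no pairs beyond the line. Between Mta123KO and Control, same-numbered samples did not deviate together, with correlations of −0.243 to −0.033 labelled 2iL and −0.108 to 0.021 labelled 48 h. The correlations differed in sign between pairs in the Mta2 series (−0.173 to 0.288) and the Mta3 series (−0.127 to 0.341).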

Additional observations from a re-analysis of the deposited data

Results flagged for a closer look

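The culture effect on Meg3, Rian, Mirg and Rtl1 had opposite signs in the 2 genotypes, with every library of a group on the same side. The log2 ratio of 48 h over 2iL as labelled was −1.64 in Control and 1.01 in Mta123KO for Meg3. It was −1.54 and 0.92 for Rian, −1.62 and 0.78 for Mirg, and −1.94 and 0.58 for Rtl1. The difference was not tested for these 4 genes, which were chosen with it known. For the other genes of the region the difference was tested, and 80 of 87 passed as higher (edgeR interaction term), 56 of 59 among those that share no exon with the 6 genes and 46 with the libraries of a line summed. These counts are not independent of the 4 genes, whose transcripts hold many of them. In the 24 groups of 4 values formed by the 6 genes and 4 groups, no library stood apart by Dixon's criterion, which chance alone meets in about 1 of 20 groups.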

How the results depend on the processing

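Exchanging the culture labels exchanged the 2 comparisons of Mta123KO with Control, so the maternal RNAs had log2 ratios of 0.40 for 2iL and −2.09 for 48 h, and the paternal genes 0.38 and −1.99. The counts of other genes of the region became 7 and 80, and the 83, 17 and 80 genes called for culture in Control, culture in Mta123KO and the interaction turned direction. Leaving out each replicate number gave −2.18 to −2.05 for the maternal RNAs and −2.03 to −1.93 for the paternal genes in the culture labelled 2iL. Dlk1 and Dio3 together depended on the line, at −0.56 in line 2 alone (lines matched by number only), and at 0.15 to 0.81 without 1 replicate number (an alternative chosen after seeing the data). The 7 genes called in the culture labelled 48 h became 16 by adjusted p only, 13 with all 16 libraries in 1 fit, 12 with the replicate block, 1 with the libraries of a line summed, and 2 to 8 without 1 replicate number (2 without 1_1 and 4 without 1_2). The 17 called between cultures in Mta123KO became 27 by adjusted p only, 11 with ERCC scaling, 0 with lines summed, and 6 to 13 without 1 replicate number (6 without 1_1, 1_2 or 2_2). With lines summed, that comparison called 0 of all 24445 genes. The 80 of the interaction became 46 with lines summed, where 379 of all 25816 genes were called higher. Summing leaves 2 samples per group. Of the coding members, Mta2_KO had 2 called by adjusted p only, and Mta3_del/del had 1 by DESeq2, 1 with the replicate block and 0 to 1 without 1 replicate number. With the replicate block, Dlk1 in Mta3_del/del had an edgeR adjusted p of 0.040, and Rtl1 in Mta1_del/del turned to −0.085. Without 1 replicate number, Rtl1 in Mta1_del/del ranged from −0.36 to 0.36, Dio3 in Mta1_del/del from −1.76 to 0.078, and Dio3 in Mta3_del/del from −0.17 to 0.28. The cause of these changes was not tested. In the comparisons of Mta123KO with Control the replicate numbers did not pair the samples. In the Mta2 and Mta3 series they did not pair every sample. Depth limits Dlk1, which rests on 5 to 11 counts per library in Control labelled 48 h.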
